A study of Mus musculus with 4 samples.

Results

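Cd209a type 2 dendritic cells of the injured mouse carotid artery were selected from single-cell RNA-sequencing libraries by their transcripts. A cell barcode was selected when it held at least 500 genes, at least 1000 unique molecular identifiers (UMIs, each standing for 1 captured transcript) and at most 10% mitochondrial UMIs. It further needed at least 2 UMIs of Cd209a, at least 0.5% of its UMIs from the class II genes H2-Aa, H2-Ab1 and Cd74, under 0.1% from C1qa, C1qb and C1qc, and 0 UMIs of Cd3d, Cd3e and Cd3g. The rule selected 321 of 6161 barcodes, comprising 99 at day 3, 208 at day 7 and 14 at day 14 after injury. Since these genes chose the cells, their levels are given as description, as are all differences between these cells and other cells.

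The study followed the carotid artery after wire injury, in which the inner lining is scraped off with a wire. C57BL/6 mice, 11 weeks old before injury, gave 1 library of uninjured vessels (day 0) and 1 library each of days 3, 7 and 14 after wire injury. No genetic change is given for any group, and all mice were male according to the study's methods. Vessels of several mice were pooled for each library, thrombosed vessels were left out, the tissue was enzymatically digested and dead cells were removed. With 1 library per day there was no replicate and no test, a difference between days cannot be told apart from a difference between libraries, and the 95% intervals given cover only the error of counting.

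Dendritic cells take up material in tissues, cut it into peptides and show these on MHC class II molecules to CD4 T cells. Type 2 conventional dendritic cells are the class II-rich branch that carries C-type lectins, depends on the growth factor receptor Flt3 and uses the transcription factors Irf4 and Zeb2. Monocytes that enter inflamed tissue can take on many of the same genes, Cd209a included, so that a rule on these genes may admit both. In arteries, dendritic cells are found mainly in the adventitia and around sites of damage.

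The libraries of days 0, 3, 7 and 14 held 249, 1196, 2018 and 880 barcodes that passed the filter on genes, UMIs and mitochondrial share, with median UMI counts of 9220, 7194, 9040 and 13742. The selected cells were sequenced to a median of 18559, 13290 and 13419.5 UMIs at days 3, 7 and 14, and together held 1789046, 3119087 and 177064 UMIs. They carried a median of 25, 17.5 and 8.5 UMIs of Cd209a. Of the selected barcodes, 3 carried the genes of another cell type. At day 7, a barcode of 24958 UMIs held 711 UMIs of Col1a1 and 1217 of Col3a1, collagen genes of fibroblasts. Another of 129432 UMIs, the most of any selected barcode, held 989 of Col1a1, 1034 of Spp1 and 283 of Vcam1. At day 14, a barcode of 13098 UMIs held 51 UMIs of Siglech, 12 of Ly6d and 10 of Dntt, genes of plasmacytoid dendritic cells and lymphoid precursors, with 0.588% class II UMIs. Results that rest on these barcodes are given with and without them. A total of 217 barcode sequences occurred in more than 1 library, 2 of them in selected cells of day 7, with 129432 and 57901 UMIs. The same sequences held 1680 and 641 UMIs at day 14, with 0 UMIs of Cd209a. Of the selected barcodes, 7 were among those with high doublet scores.

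No barcode of the uninjured artery met the rule, and none there held a UMI of Cd209a. The limit of 3 cells on a count of 0 corresponds to 1.20% of the 249 filtered barcodes, of which only 23 held a UMI of Ptprc, the gene of the pan-leukocyte protein CD45. The selected cells made up 8.28% (exact binomial interval 6.78 to 9.99), 10.3% (9.01 to 11.7) and 1.59% (0.872 to 2.65) of the filtered barcodes of days 3, 7 and 14. Among filtered barcodes with Ptprc, the shares were 11.1%, 12% and 4.58%. The share at day 7 was 1.25 times that at day 3 (0.976 to 1.6), an interval that includes 1. The share at day 14 was 0.154 times that at day 7 (0.0829 to 0.265) among all filtered barcodes and 0.381 times (0.205 to 0.654) among those with Ptprc. The day 14 share was thus below both earlier days beyond counting error on either denominator, with the gap smaller among leukocytes. A share does not count cells per vessel, and the digestion sets which cells are recovered.

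**Figure D1:**
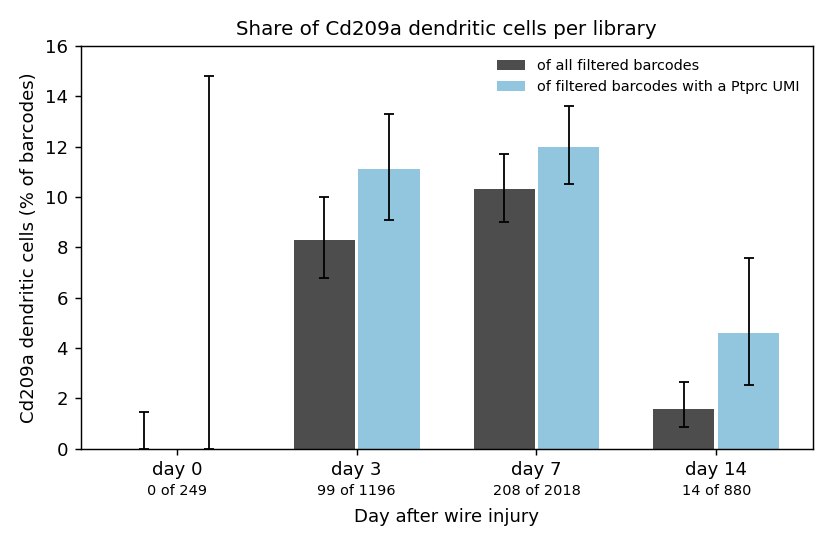
Share of Cd209a dendritic cells (y axis, % of barcodes) by day after wire injury (x axis), of all filtered barcodes and of filtered barcodes with a Ptprc UMI, with exact binomial 95% intervals as error bars. The bars stand at 8.28% and 10.3% of filtered barcodes at days 3 and 7 and at 1.59% at day 14, and no cell was selected at day 0.

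Other genes of type 2 dendritic cells were then described in the 3 libraries. Their list was chosen with earlier results of these data known, so that seeing these genes does not test what the cells are. Of 20 such genes beyond the selecting genes, 20, 20 and 19 were seen at days 3, 7 and 14, although 14 of 14 monocyte and 10 of 10 fibroblast genes were also seen at days 3 and 7. The lectin gene Clec4a4 was at 0 at day 14 and had only 7 and 4 UMIs before. Summed over the 20 genes, the level was 9790, 7787 and 5574 CPM, the scaled UMI count of the selected cells that is used for levels throughout (1000000 UMIs in all). Ifitm1, a gene of this list, was alone at 2410, 1783 and 16.9 CPM, so that much of the lower sum at day 14 lay in it. Napsa, which encodes the aspartic protease napsin A, was seen in 98 of 99, 203 of 208 and 14 of 14 cells. Clec10a, which encodes a lectin for galactose-type sugars, was seen in 89, 175 and 14 cells.

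The defining genes of several other cell types were low or absent. For type 1 dendritic cells, Xcr1 had 1, 2 and 0 UMIs in all selected cells of days 3, 7 and 14, and Clec9a had 1, 9 and 2, while the 12 genes of their list, several of which other dendritic cells share, summed to 563, 462 and 791 CPM, and to 451 CPM at day 14 without the Siglech barcode described above. Of mature dendritic cells, the lymph node homing receptor Ccr7 had 0, 24 and 6 UMIs. The B cell genes Cd79a and Ms4a1 had 0 UMIs in a list that summed to 81.6, 92.3 and 147 CPM (79.3 CPM at day 14 without the same barcode), and the summed T cell list stood at 2.79, 13.8 and 5.65 CPM, with the Cd3 genes at 0 by the rule. Fibroblast genes summed to 484, 2205 and 712 CPM, and to 783 CPM at day 7 without the barcodes of another type. The plasmacytoid list summed to 432, 483 and 1638 CPM, and to 421 CPM at day 14 without the Siglech barcode. Monocyte genes were not low, at 6954, 6183 and 4258 CPM in sum, and macrophage genes stood at 2565, 3374 and 1242 CPM. Whether the selected cells came from dendritic cell precursors or from monocytes was not tested.

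Cd209a itself, the mouse relative of the lectin DC-SIGN, stood at 1663 CPM (exact Poisson interval 1604 to 1724), 1552 CPM (1508 to 1596) and 1011 CPM (868 to 1170) at days 3, 7 and 14. The selected cells held 94.7%, 85.5% and 61.1% of its UMIs among the filtered barcodes, a high share that follows from the rule. The same share for Clec10a was 82.6%, 69.6% and 41.4%, and for Cd209d, another member of the family, 77.5% and 70.6% at days 3 and 7. T cells, which lack the gene, gave Cd209a at 5.82 and 2.82 CPM at days 3 and 7, and fibroblasts gave 0.847 and 1.76 CPM. Reads of the near-identical Cd209 genes, of Clec10a and Mgl2, and of the class II genes may be assigned to the wrong copy, so that levels within each family are uncertain.

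Values just inside and outside the rule were set side by side over days 3, 7 and 14. The 17 barcodes with exactly 2 UMIs of Cd209a held Clec10a at 450 CPM, Napsa at 1238 CPM and the monocyte lysozyme gene Lyz2 at 1082 CPM. The 47 barcodes with exactly 1 UMI that met all other criteria held them at 281, 483 and 5331 CPM. The 8 barcodes with 0.5% to 1% class II UMIs held Clec10a at 176 CPM and H2-Eb1 at 1810 CPM, and the 22 under 0.5% at 178 and 167 CPM. Thus the lower limit on Cd209a separated barcodes that differed in Lyz2, Napsa and, by less, Clec10a. Across the class II limit Clec10a was alike, and Lyz2 was at 4707 CPM inside and 4621 CPM outside. Napsa differed there too, at 375 CPM inside and 639 CPM outside.

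The cells were next set beside 3 kinds of cell that share genes with them. C1q macrophages had at least 0.5% of UMIs from C1qa, C1qb and C1qc (164 cells at day 3, 282 at day 7). Ly6c2 Plac8 monocytes had at least 2 UMIs of each gene they are named for (33 and 106 cells). Ccr7 dendritic cells, mature migratory cells, were chosen on Ccr7, Fscn1 and class II genes (16 and 32 cells). All had under 2 UMIs of Cd209a. Among genes with at least 50 CPM on either side, a gene was called higher or lower when the ratio, with 10 CPM added to both levels, was at least 2 or at most 0.5. Against C1q macrophages, 204 of 3375 genes were higher in the Cd209a cells at day 3 (6.04%) and 415 lower (12.3%). At day 7, 5.21% were higher and 9.10% lower. Against monocytes, 7.28% were higher and 10.8% lower at day 3, and 3.99% and 5.99% at day 7. Against Ccr7 dendritic cells, 21.4% were higher and 14.5% lower at day 3, and 21.8% and 13.4% at day 7. By these counts the Cd209a cells stood farther from the Ccr7 dendritic cells than from macrophages or monocytes, although the Ccr7 cells were fewest, and sampling noise in 16 and 32 cells adds calls.

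Clec10a was at 784 and 524 CPM in the Cd209a cells at days 3 and 7, against 56.8 and 33.3 CPM in C1q macrophages, 31.2 and 132 CPM in monocytes and 10.2 and 11.5 CPM in Ccr7 dendritic cells. Klrd1, which encodes the CD94 chain of killer-cell lectin receptors, was at 548 and 553 CPM, against 3.29 and 17.9 CPM in macrophages, 0 and 138 CPM in monocytes and 227 and 216 CPM in Ccr7 dendritic cells. T cells also carried Klrd1, at 433 and 238 CPM. H2-DMb2, a chain of the H2-DM molecule that loads peptides onto class II, was at 186 and 131 CPM, against 4.11 and 6.79 CPM in macrophages and 186 and 156 CPM in Ccr7 dendritic cells. Flt3 was at 63.2 and 97.1 CPM, below the 166 and 143 CPM of Ccr7 dendritic cells and above the 1.65 and 4.08 CPM of macrophages. H2-DMb2 was thus at like levels in the Ccr7 dendritic cells, but H2-DMa, which encodes the partner chain, was at 1089 and 926 CPM against 247 and 205 CPM there.

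Genes of macrophages set the cells apart in the other direction. Apoe, the lipid carrier apolipoprotein E, was at 24.6 and 104 CPM at days 3 and 7, against 13064 and 16566 CPM in C1q macrophages. Fcgr1, the high-affinity IgG receptor, was at 82.2 and 117 CPM, against 530 and 303 CPM in macrophages and 395 and 290 CPM in monocytes. Lyz2 was at 1577 and 2504 CPM, against 16634 and 17335 CPM in monocytes and 91.4 and 122 CPM in Ccr7 dendritic cells. Ccr2, the receptor that draws monocytes out of the marrow, was at 750 and 478 CPM, against 1133 and 742 CPM in monocytes and 37.3 and 66.7 CPM in Ccr7 dendritic cells. In C1q macrophages Ccr2 was at 792 and 503 CPM, close to the level in the Cd209a cells. The leading genes against all other Ptprc barcodes, beside Clec10a and Napsa, included Kmo, an enzyme of tryptophan breakdown, the transcription factor gene Bcl11a and the peptidase gene Dpp4.

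**Figure D2:**
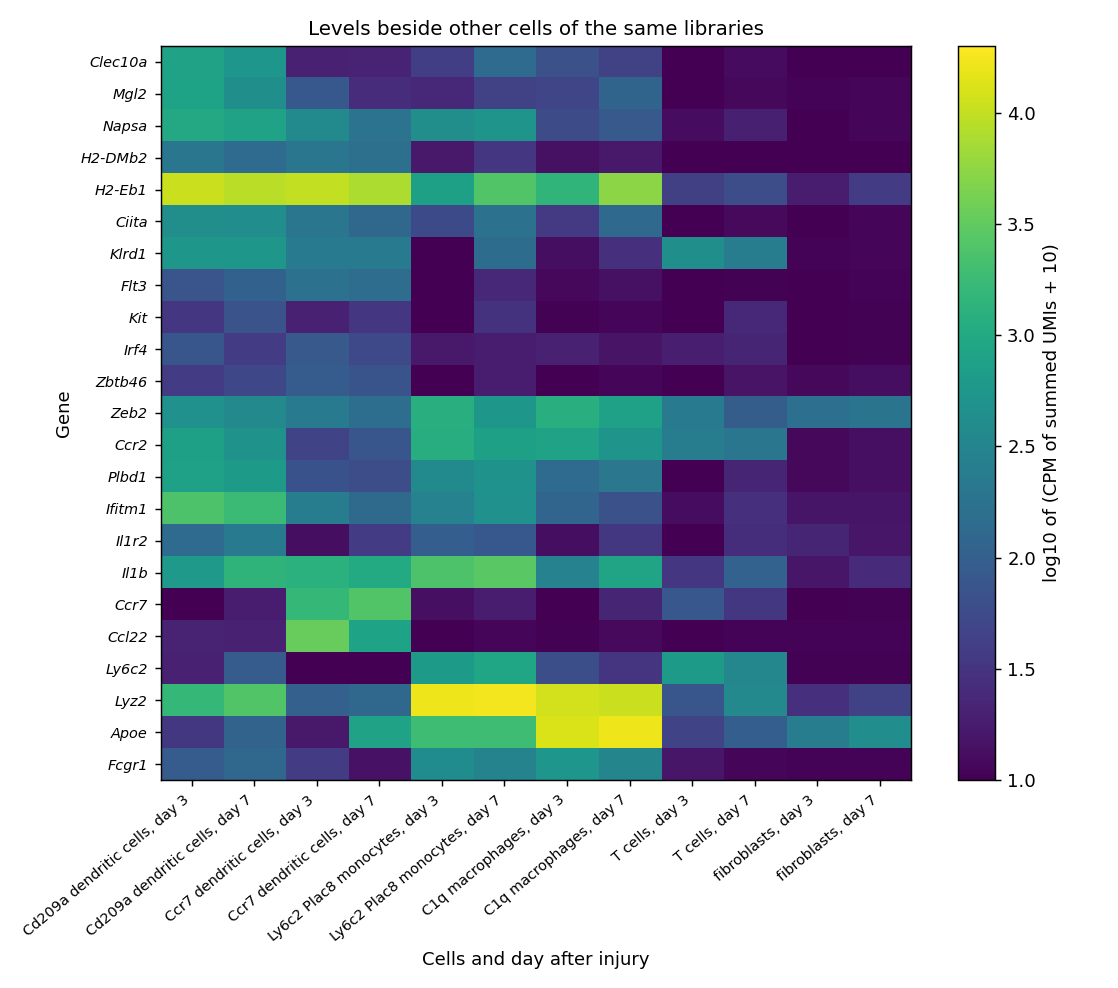
Levels of selected genes (rows) as log10 of summed CPM plus 10 (colour) in the Cd209a dendritic cells and in other cells of the same libraries at days 3 and 7 (columns). Clec10a was at 784 and 524 CPM in the Cd209a cells and at no more than 132 CPM in macrophages, monocytes and Ccr7 dendritic cells, whereas Apoe was at 13064 and 16566 CPM in C1q macrophages.

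The class II genes are known to be switched on together by the coactivator Ciita, which acts through a promoter module that contains an inverted CCAAT element, the Y box. The short core ATTGG was searched on both strands of the 250 bases before the RefSeq start sites (build GRCm38.p6). Of 7 class II genes, 6 had a window in the table, and 5 of them held the core, which 34.5% of the windows of 27025 genes also hold. For 3 of these genes, 1 of the rule and 2 outside it, the stretch is printed 5′ to 3′ in the direction of the gene, with the core in capitals on either strand. A match describes the letters only, and the factor's binding was not measured.
H2-Aa, chr17:34287842-34287896, minus strand: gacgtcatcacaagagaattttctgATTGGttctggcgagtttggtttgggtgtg
H2-Eb1, chr17:34305783-34305861, plus strand: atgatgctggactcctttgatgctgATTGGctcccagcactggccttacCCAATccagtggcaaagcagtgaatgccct
H2-DMb1, chr17:34153105-34153159, plus strand: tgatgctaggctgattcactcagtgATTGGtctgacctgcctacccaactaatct

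Few antigen presentation genes outside the rule were called between days, near the shares of all genes. H2-Eb1, a class II beta chain outside the selecting genes, was at 10910, 9098 and 10985 CPM at days 3, 7 and 14. H2-Ab1, a gene of the rule and so given as description only, was at 12064, 10319 and 10962 CPM. Lysosomal cathepsin S, Ctss, which trims the invariant chain, was at 1520, 1499 and 1350 CPM. Napsa was at 977, 798 and 842 CPM. The ratio of day 7 to day 3 was 0.834 (0.819 to 0.849) for H2-Eb1 and 0.816 (0.768 to 0.868) for Napsa, small differences beyond counting error. The chains of H2-DM, H2-DMa and H2-DMb1, were at 1089, 926 and 751 CPM and at 1095, 871 and 825 CPM. Of 16 genes of the list outside the rule, 14 were tested, which means that they reached 50 CPM in either day, and 0 of 14 were called between days 3 and 7, against 3.09% of all 3038 tested genes called higher and 1.35% lower at day 7. A count of 0 is near those shares for 14 genes. Their median log2 ratio was -0.12, beside -0.02 over all genes tested. Ciita was at 421, 410 and 203 CPM, with a ratio of 0.483 (0.336 to 0.675) from day 3 to day 14, and was the single gene of the list called, a count near the 6.59% of 3310 tested genes called lower. Without the barcodes of another type its ratio was 0.507 and it was not called. It was seen in 96, 196 and 10 cells.

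Most of the lectins were highest at day 3, with 8 of 10 tested below that level at day 7. Clec10a stood at 784 CPM (743 to 826), 524 CPM (498 to 550) and 328 CPM (249 to 423) at days 3, 7 and 14, so that the intervals of the days did not overlap, and the ratio of day 14 to day 3 was 0.418 (0.316 to 0.544). Its neighbour Mgl2, a second lectin for galactose-type sugars, was at 802, 435 and 232 CPM and was seen in 60, 93 and 5 cells, with a ratio of 0.289 (0.206 to 0.394) over the same interval. Mrc1, the mannose receptor, was at 358 CPM at day 3 and at 77.9 and 79.1 CPM later, with a ratio of day 7 to day 3 of 0.218 (0.187 to 0.253). Clec4b1, an activating lectin receptor of dendritic cells, was at 166, 62.2 and 102 CPM. Clec4n, which encodes the fungal receptor Dectin-2, was at 252, 158 and 39.5 CPM. Of 10 lectins tested outside the rule, 0 were called higher and 2 lower at day 7 than at day 3, against 3.09% and 1.35% of all genes, with a median log2 ratio of -0.59. At day 14 against day 3, 1 was higher and 4 were lower, against 7.85% and 6.59%, with a median of -0.85, beside -0.01 over all genes. The exception was Clec12a, an inhibitory receptor for urate crystals, at 43.0, 54.2 and 277 CPM and seen in 28, 70 and 11 cells. Its ratio of day 14 to day 7 was 5.11 (3.64 to 7.06), against 4.68% of 3290 tested genes called higher, and 4.22 without the barcodes of another type. At day 14 its highest cell held 15 of 49 UMIs, so that the difference was not carried by 1 cell.

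**Figure D3:**
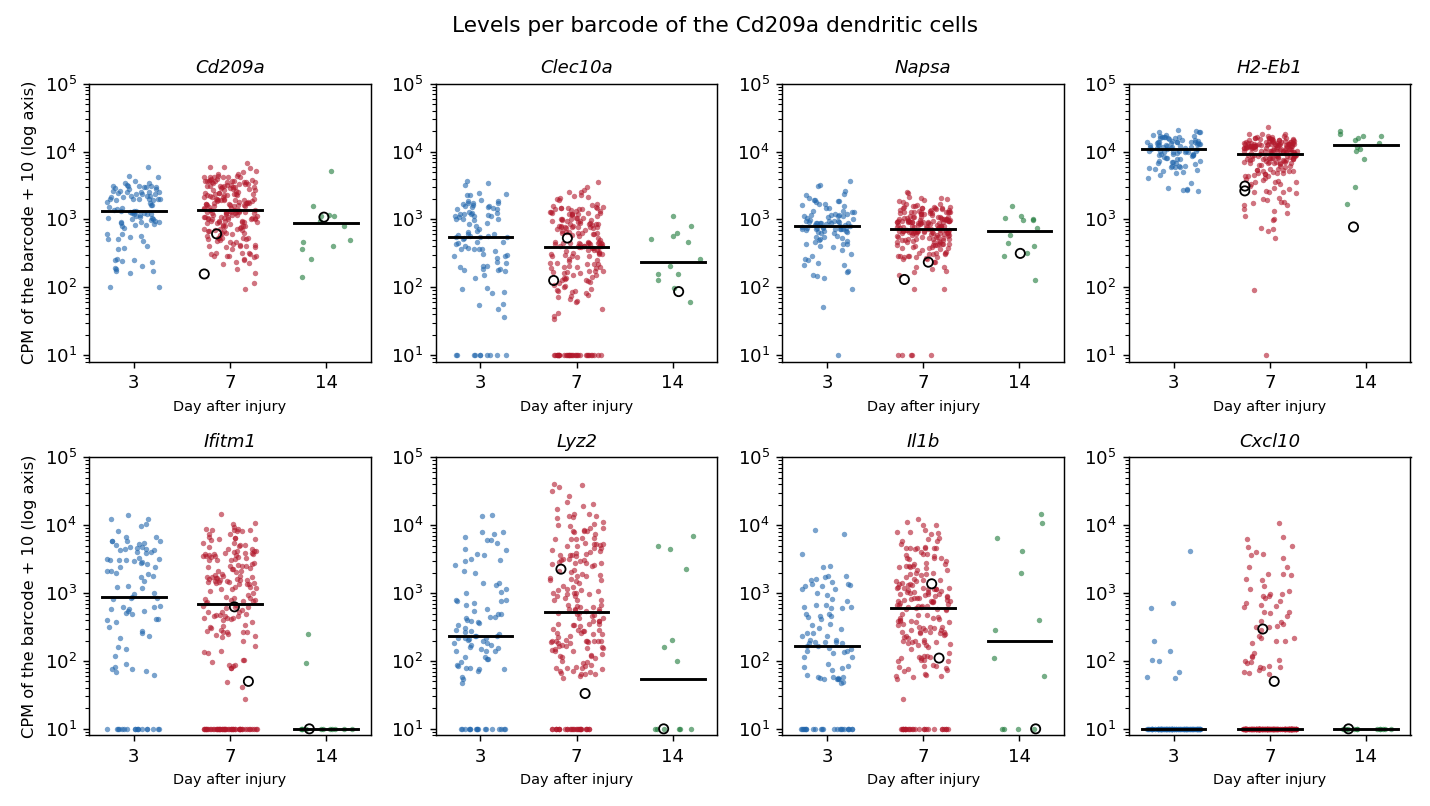
CPM plus 10 of single barcodes (points, log axis) of the Cd209a dendritic cells for 8 genes by day after injury, with 99, 208 and 14 barcodes at days 3, 7 and 14. Ifitm1 spread from 0 to 14019 and 14633 CPM at days 3 and 7 and was seen in only 2 of 14 barcodes at day 14.

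Between days 3 and 7, 135 of 3038 tested genes (4.44%) differed by at least 2-fold, 94 of them higher at day 7. Of the 12 higher genes named by their interval bound, Vcam1 and Spp1 stood there through the barcodes of another type, with 283 of 302 UMIs of Vcam1 and 1034 of 1144 of Spp1 in 1 barcode. The collagen genes did so in part. Col1a1 was at 30.7 CPM at day 3 and 659 CPM at day 7, and at 120 CPM at day 7 without those barcodes, and Col3a1 was at 53.1, 624 and 177 CPM in the same order. Of 6 tested fibroblast genes, 5 were called higher at day 7, and 3 without those barcodes, against 3.09% of all genes tested in all selected cells. Without the barcodes of another type, 80 genes were higher and 42 lower. Of the 94 higher genes, 12 had at least 50% of their UMIs in 1 barcode, against 0 of the 41 lower genes.

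The genes lower at day 7 than at day 3 included several spread over many cells. Gda, which encodes guanine deaminase, was at 216 CPM at day 3 and at 37.8 and 28.2 CPM at days 7 and 14, and was seen in 68, 53 and 3 cells, with a ratio of day 7 to day 3 of 0.175 (0.141 to 0.216). Krt80, a keratin gene, was at 191, 47.4 and 56.5 CPM. The heparan sulphate proteoglycan gene Sdc3 was at 193, 60.3 and 33.9 CPM, and Ddr1, a collagen receptor kinase, at 132, 38.2 and 50.8 CPM. These were spread over most cells of day 3, with Ddr1 in 75 and Sdc3 in 79 of 99. Fgfr1, a receptor for fibroblast growth factors, was at 77.1, 17.3 and 56.5 CPM, and Cd200r1, an inhibitory receptor, at 74.3, 18.6 and 33.9 CPM. Sept3, a septin gene, was at 52.5, 7.69 and 0 CPM.

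Other genes of day 3 were held by fewer cells. Lpl, which encodes lipoprotein lipase, was at 93.3 CPM in 18 cells at day 3, at 0.962 CPM at day 7 and at 0 at day 14, and 1 cell held 53 of its 167 UMIs. Mmp19, a metalloproteinase gene, was at 73.8 CPM in 17 cells, then at 9.30 CPM and 0. Ear2, a ribonuclease gene, was at 123 CPM in 11 cells, with 93 of 220 UMIs in 1, and at 2.89 CPM at day 7. At day 14 it was at 84.7 CPM, with 13 of 15 UMIs in 1 cell. The fibronectin gene Fn1 was at 632, 223 and 73.4 CPM, and at 129 CPM at day 7 without the barcodes of another type. Among 8 tested genes of the alternative activation list, 1 was called higher at day 7, the coagulation factor gene F13a1, and 3 lower, namely Ear2, Fn1 and Mrc1, against 3.09% and 1.35% of all genes.

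**Figure D4:**
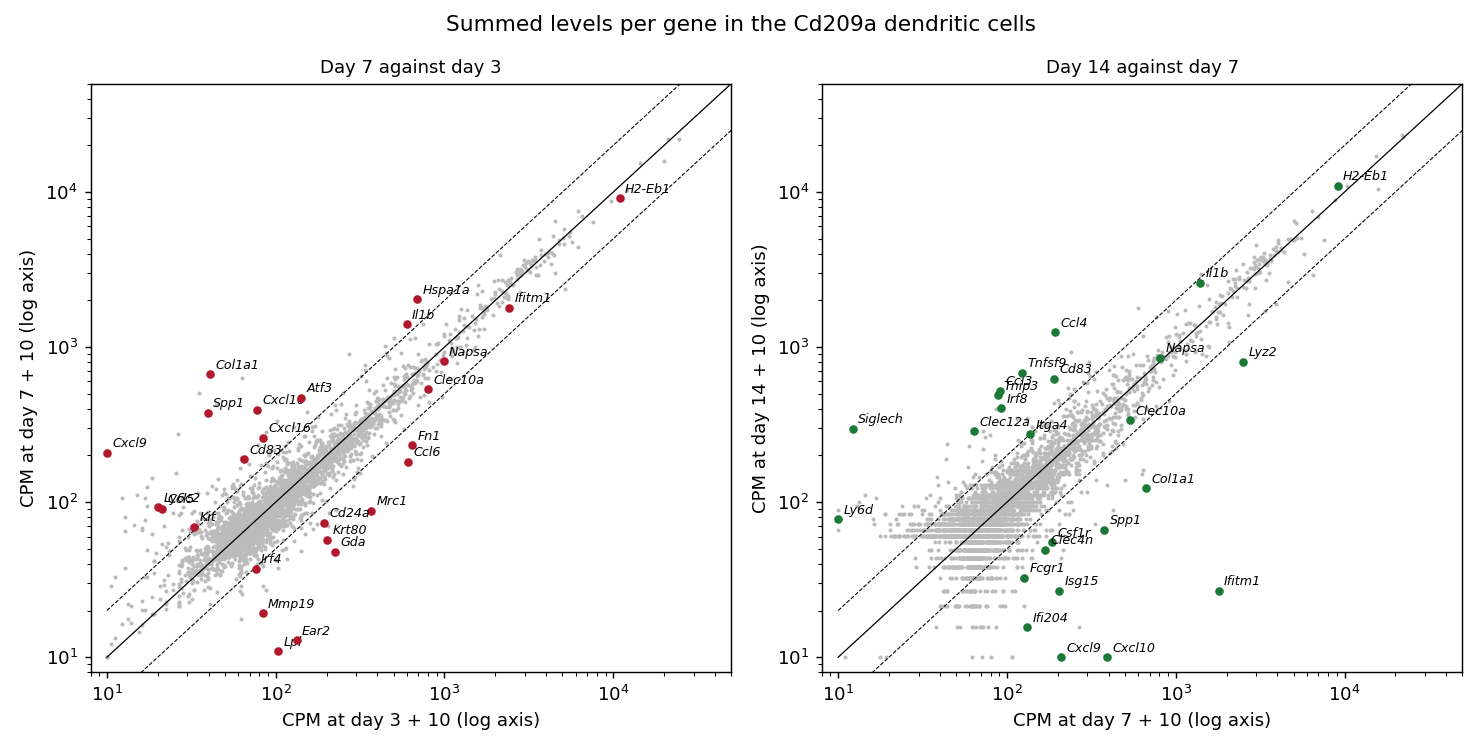
Summed CPM plus 10 of each gene in the Cd209a dendritic cells at day 7 against day 3 (left) and at day 14 against day 7 (right), on log axes, with named genes labelled. Cxcl9 and Il1b lie above the diagonal at day 7 and Gda and Mrc1 below it, and Ifitm1 lies far below it at day 14, at 16.9 CPM against 1783.

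Most of the interferon-stimulated genes tested were highest at day 7 and low at day 14 in the Cd209a cells, and some were so in other cells too. The promoters of such genes are known to hold an interferon-stimulated response element, whose core was searched as TTTC and TTTC with any 2 bases between them, on both strands of the same 250-base windows, and gamma-activated sites, searched as TTCNNNGAA. The first stood in 3.04% and the second in 7.18% of the windows of all genes. Of 19 genes of the type I list, 13 had a window and 5 of them held the first core. Of 17 genes of the interferon-gamma list, 13 had a window, 11 of which held the first core and 7 the second, and Cxcl9 held neither. Stretches with the response element core in capitals are printed for 5 interferon-stimulated genes described next, 5′ to 3′ in the direction of the gene (RefSeq, GRCm38.p6); in Isg15 the capitals hold 3 overlapping matches.
Ifit1, chr19:34640760-34640838, plus strand: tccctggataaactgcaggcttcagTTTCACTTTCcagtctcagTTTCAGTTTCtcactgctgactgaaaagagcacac
Ifit3, chr19:34583348-34583441, plus strand: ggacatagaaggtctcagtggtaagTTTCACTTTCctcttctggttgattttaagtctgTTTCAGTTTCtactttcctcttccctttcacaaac
Isg15, chr4:156200850-156200921, minus strand: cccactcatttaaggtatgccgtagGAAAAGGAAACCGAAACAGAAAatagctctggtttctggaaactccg
Rsad2, chr12:26456538-26456597, minus strand: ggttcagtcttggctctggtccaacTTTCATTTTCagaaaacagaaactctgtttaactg
Cxcl10, chr5:92349068-92349127, minus strand: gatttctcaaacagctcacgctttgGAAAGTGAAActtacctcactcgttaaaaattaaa

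Ifit3 was at 17.9 CPM at day 3, 97.1 CPM at day 7 and 0 at day 14 and was seen in 13, 34 and 0 cells. The ratio of day 7 to day 3 was 5.43 (3.77 to 8.08). Its neighbour Ifit1 was at 103, 123 and 5.65 CPM, but 1 cell held 151 of its 184 UMIs at day 3. Isg15, a ubiquitin-like modifier, was at 142, 193 and 16.9 CPM and was seen in 57, 102 and 2 cells, and its ratio of day 14 to day 7 was 0.0876 (0.018 to 0.257). Rsad2, which encodes the antiviral enzyme viperin, was at 21.2, 54.5 and 16.9 CPM, and Ifi205, a DNA-sensor family gene, at 39.1, 111 and 22.6 CPM. Both were called higher at day 7 than at day 3. Of 14 genes of the type I list tested, 3 were called higher and 0 lower at day 7 than at day 3, against 3.09% and 1.35% of all genes, with a median log2 ratio of 0.57 and 12 of 14 above 0. At day 14 against day 7, 12 of 14 were called lower and 0 higher, with a median of -2.12, against 4.98% of 3290 tested genes called lower. At day 14 these genes rested on few UMIs, and the limit of 3 counts on the zero of Ifit3 is 16.9 CPM. Isg15 was also lowest at day 14 in fibroblasts, at 445, 197 and 55.8 CPM, and in T cells, at 49.4, 91.4 and 37.2 CPM. Neutrophils held Isg15 at 406 and 843 CPM at days 3 and 7. Ccr7 dendritic cells held it at 589, 228 and 612 CPM, the last from 1 cell. Whether the libraries or the cells set these levels was not tested.

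Cxcl9, a chemokine for T cells that interferon-gamma induces, was at 0 UMIs at days 3 and 14 and at 617 UMIs, or 198 CPM, at day 7. These lay in 23 of 208 cells, with 201 UMIs in 1 of them. Cxcl10, which binds the same receptor, was at 67.6, 384 and 0 CPM and was seen in 10, 63 and 0 cells, with a ratio of day 7 to day 3 of 5.67 (4.70 to 6.90). At day 3, 1 cell held 85 of its 121 UMIs. Irf1, a transcription factor of the interferon-gamma response, was at 45.3, 117 and 62.1 CPM, with a ratio of day 7 to day 3 of 2.58 (2.03 to 3.33). The GTPase gene Gbp2 was at 4.47, 48.1 and 0 CPM. Of 5 tested genes of the interferon-gamma list, 2 were called higher and 0 lower at day 7, against 3.09% and 1.35% of all genes, and 3 were higher without the barcodes of another type. At day 14 against day 7, 4 of 5 were called lower, against 4.98% of all genes. The Cd209a cells held 29.8% of the Cxcl9 UMIs of all filtered barcodes at day 7 and 17.5% of those of Cxcl10. Cxcl10 was also highest at day 7 in fibroblasts, at 65.7, 323 and 28.6 CPM, and in T cells, at 11.6, 106 and 81.0 CPM. Ccr7 dendritic cells held Cxcl10 at 10.2 and 11.5 CPM at days 3 and 7.

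The 23 cells with a Cxcl9 UMI at day 7 were set beside the 183 without one, leaving out the barcodes of another type, a division chosen after seeing the data. Median UMI counts were 12308 and 13323. Cxcl10 was at 1675 against 227 CPM, a ratio of 7.38 (6.56 to 8.29). Gbp2 gave a ratio of 6.14, Irf1 of 5.02 and Cd40, a receptor for T cell help, of 3.31. Of the type I list, Ifit1 gave 1.29 (0.946 to 1.72), Isg15 1.33 (1.05 to 1.67) and Ifi205 1.68 (1.25 to 2.22). Ly6a of the same list, a surface antigen that both kinds of interferon can induce, gave 5.0. Clec10a was lower, at a ratio of 0.422 (0.334 to 0.527), and H2-Eb1 was at 0.882. Within day 7 these interferon-gamma genes thus stood higher in the cells with Cxcl9, and Clec10a stood lower.

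Ifitm1, a gene of the interferon-induced transmembrane family that restricts viral entry, led the genes lower at day 14 by its interval. It was at 2410 CPM at day 3 (2339 to 2483) and 1783 CPM at day 7 (1736 to 1830), and at 16.9 CPM (3.49 to 49.5) at day 14. It was seen in 81 of 99 and 157 of 208 cells at days 3 and 7, and in 2 of 14 at day 14, with 3 UMIs in all. The ratio of day 14 to day 7 was 0.0095 (0.00196 to 0.0278). Ifitm3 of the same family was at 3671, 3358 and 1711 CPM, so that the family did not share the size of this gap.

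Ifitm1 was also lower at day 14 in some other cells. All other filtered barcodes together held it at 274, 216 and 6.39 CPM at days 3, 7 and 14. In C1q macrophages it was at 110, 56.6 and 4.37 CPM, and in Ly6c2 Plac8 monocytes at 284, 451 and 16.5 CPM. Neutrophils held it at 4884 and 1871 CPM at days 3 and 7. The Ccr7 dendritic cells were at 230, 129 and 188 CPM, the last from 1 cell. Fibroblasts were at 5.51, 5.52 and 3.60 CPM, and day 0 held no UMI of it. The Cd209a cells held 50.1% and 53.8% of the library's Ifitm1 UMIs at days 3 and 7 and 3.57% at day 14. Whether the library or the cells set the low level at day 14 cannot be told apart.

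Within days 3 and 7, Ifitm1 varied over the cells from 0 to 14019 and 14633 CPM, around medians of 876 and 682 CPM. Cells with at least 5000 UMIs were divided, after seeing the data, into Ifitm1-high cells with at least 1000 CPM (47 at day 3, 89 at day 7) and Ifitm1-low cells under 200 CPM (27 and 63). Median UMI counts were 19517 against 16680 at day 3 and 14575 against 12847 at day 7. H2-DMb2 was higher in the Ifitm1-high cells on both days, at ratios of 3.01 (2.12 to 4.38) and 2.24 (1.72 to 2.94). Ffar2, a receptor for short-chain fatty acids, gave ratios of 7.19 and 2.73. The decoy receptor gene Il1r2 gave 3.15 and 4.19, and Cd72, a receptor best known from B cells, 2.02 and 5.18. Kit, the stem cell factor receptor, gave 6.92 (1.75 to 60.0) and 2.92. Napsa gave 1.87 and 1.42, and Klrd1 1.32 and 2.70. These 7 genes were higher in the Ifitm1-high cells in both libraries.

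Clec10a, at ratios of 1.32 and 1.74, and H2-Eb1, at 1.32 and 1.29, were also higher on both days, whereas several other genes were not. Mgl2 gave ratios of 0.996 and 1.06 and Flt3 of 0.944 and 0.852. Lyz2 was alike at day 3, at 0.949, and lower in the Ifitm1-high cells at day 7, at 0.177 (0.167 to 0.188), or 959 against 5408 CPM. Fn1 turned from 2.57 at day 3 to 0.288 at day 7, and Ccl6, a myeloid chemokine, stood at 0.678 and 0.20. Across cells, the Spearman correlation of Ifitm1 with Lyz2 was -0.25 over 95 cells at day 3 and -0.44 over 195 at day 7, and with Klrd1 0.29 and 0.34. Cells of a day share a library, and all values share the cell's UMI total as denominator, so these correlations are descriptions. At day 7 the cells low in Ifitm1 thus held more Lyz2, Fn1 and Ccl6, but not more of the monocyte genes Plac8 and Ccr2, at ratios of 1.05 and 0.957.

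**Figure D5:**
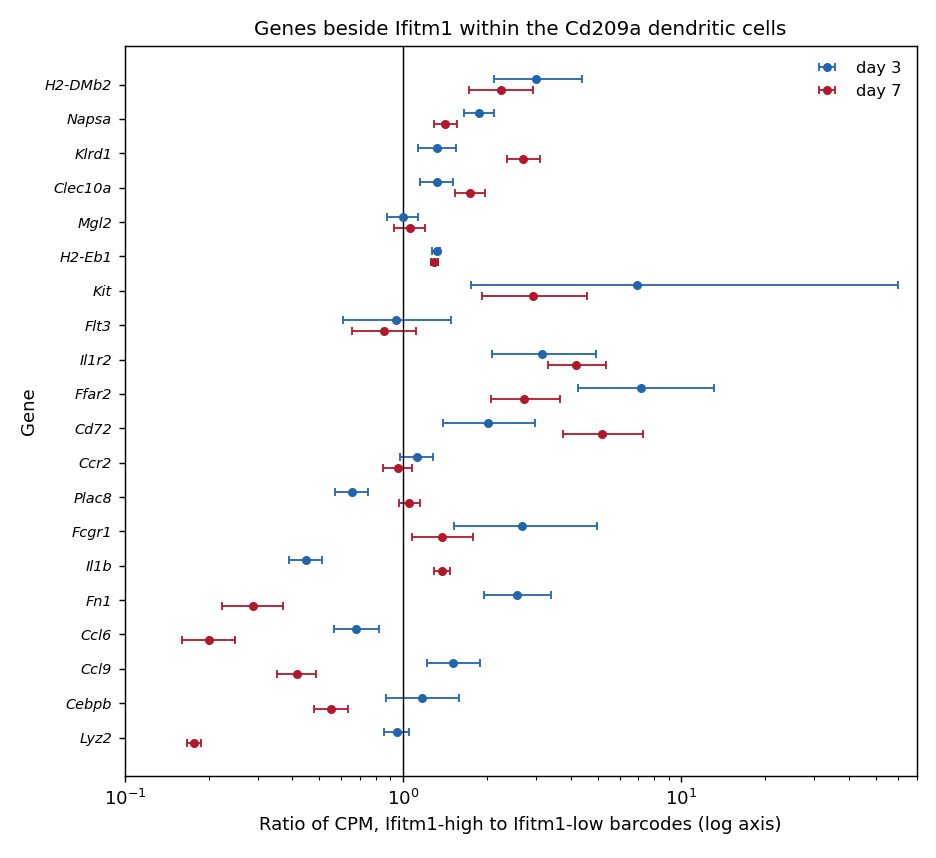
Ratio of CPM in Ifitm1-high to Ifitm1-low Cd209a dendritic cells (x axis, log scale) for each gene (y axis) at days 3 and 7, with exact conditional binomial 95% intervals. H2-DMb2 lies above 1 on both days, at 3.01 and 2.24, and Lyz2 lies near 1 at day 3 and at 0.177 at day 7.

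Il1b and several chemokine genes were higher at day 7 than at day 3. Il1b, which encodes interleukin-1 beta, was at 586 CPM (551 to 622), 1390 CPM (1349 to 1432) and 2598 CPM (2366 to 2847) at days 3, 7 and 14. It was seen in 76, 181 and 9 cells, with median levels of 159, 589 and 190 CPM, and at day 14 1 cell held 178 of 460 UMIs. Its ratio of day 7 to day 3 was 2.37 (2.22 to 2.54). The cell medians thus placed day 14 near day 3, whereas the summed level placed it highest. Of the T cell-polarising cytokines, Il6 had 1, 13 and 0 UMIs, Il10 0, 5 and 0, and Il12b 0 in each library. Of 4 cytokine genes tested, 1 was called higher at day 7, Il1b, against 3.09% of all genes. Tnf, at 33.5, 75.3 and 56.5 CPM, was called only without the barcodes of another type, where its ratio of day 7 to day 3 was 2.35.

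Of 10 chemokine genes tested, 6 were called higher and 1 lower at day 7 than at day 3, against 3.09% and 1.35% of all genes, with a median log2 ratio of 1.38. Cxcl16, a transmembrane chemokine for activated T cells, was at 73.8, 250 and 260 CPM and was seen in 41, 120 and 7 cells, with a ratio of day 7 to day 3 of 3.39 (2.82 to 4.11). Ccl4, an inflammatory chemokine, was at 52.5, 182 and 1237 CPM. At day 14, 115 and 76 of its 219 UMIs lay in 2 cells. Ccl3 of the same family was at 39.1, 80.5 and 514 CPM, with 71 of 91 UMIs at day 14 in 1 cell. Ccl5 was at 11.2, 80.8 and 11.3 CPM, with 105 of 252 UMIs at day 7 in 1 cell. The neutrophil chemokine Cxcl2 was at 87.8, 206 and 39.5 CPM. The chemokine lower at day 7 was Ccl6, at 595, 172 and 203 CPM, with a ratio of 0.290 (0.261 to 0.322). Ccl17, a ligand of Ccr4 typical of type 2 dendritic cells, was at 88.9, 77.3 and 141 CPM, with 23 of 25 UMIs at day 14 in 1 cell, and was not called. Ccr7 dendritic cells held it at 1019 and 103 CPM at days 3 and 7, above the level in the Cd209a cells. The Cd209a cells held 19.6%, 40.4% and 61.0% of the Ccl17 UMIs of the filtered barcodes. The last share was 25 of 41 UMIs (44.5 to 75.8), with 23 of the 25 in 1 cell.

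Among genes of T cell costimulation, Cd83, a surface protein that stabilises class II on maturing dendritic cells, was at 55.3, 179 and 616 CPM and was seen in 27, 113 and 7 cells. Its ratios were 3.24 (2.61 to 4.05) for day 7 to day 3 and 3.43 (2.77 to 4.22) for day 14 to day 7. The costimulatory ligand Cd86 was at 79.9, 162 and 130 CPM, and Cd40 at 35.8, 49.7 and 67.8 CPM. Tnfsf9, the ligand of 4-1BB, was at 68.8, 113 and 672 CPM, with 89 of 119 UMIs at day 14 in 1 cell. Cd24a, a sialoglycoprotein that binds Siglecs, was at 184, 63.8 and 28.2 CPM, with a ratio of day 7 to day 3 of 0.347 (0.289 to 0.415). Of 7 genes tested, 1 was called higher and 1 lower at day 7, against 3.09% and 1.35% of all genes. Of 7 genes tested from the maturation list, which includes Cd83, 3 were called higher at day 7, against 3.09% of all genes. The others were Samsn1 and Marcksl1. Ccl22, a chemokine of mature dendritic cells, was at 10.6 and 9.94 CPM in the Cd209a cells at days 3 and 7, against 3414 and 818 CPM in the Ccr7 dendritic cells, although both were chosen by rules that keep such cells apart.

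Zeb2 was at 464, 348 and 441 CPM and Klf4, needed by a subset of type 2 cells, at 240, 238 and 401 CPM. Irf4 was at 66.0, 27.3 and 62.1 CPM, with a ratio of day 7 to day 3 of 0.413 (0.309 to 0.551), and was the single gene called of 18 tested transcription factors between days 3 and 7, near the 4.44% of all genes. Without the barcodes of another type its ratio was 0.43 and it was not called. Of 20 tested at day 14 against day 3, 4 were called higher and 2 lower, against 7.85% and 6.59% of all genes, and 2 higher and 2 lower without the barcodes of another type. Zbtb46, a factor that separates classical dendritic cells from monocytes, was at 27.4, 42.0 and 33.9 CPM. Irf8, which drives type 1 and plasmacytoid dendritic cells, was at 46.4, 82.7 and 395 CPM. At day 14, 61 of 70 Irf8 UMIs lay in the Siglech barcode, and the level was 54.9 CPM without it. Id2, an inhibitor of E proteins, was at 211, 212 and 73.4 CPM.

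Receptors for growth factors and chemokines showed few differences between days 3 and 7. Flt3 was at 63.2, 97.1 and 96.0 CPM and was seen in 53, 136 and 8 cells. Kit was at 22.9, 59.6 and 56.5 CPM, with a ratio of day 7 to day 3 of 2.60 (1.85 to 3.74), and was the single gene called of 12 tested growth factor receptors, a count near the 3.09% of all genes called higher and 1.35% lower. Csf1r, the receptor of macrophage colony-stimulating factor, was at 141, 175 and 45.2 CPM, with a ratio of day 14 to day 7 of 0.258 (0.111 to 0.511). At day 14, 4 receptors of this list were called lower than at day 7, against 4.98% of all genes, the others being Il4ra, Ifngr1 and Il1r2. Without the barcodes of another type, 5 were. Ccr2 was at 750, 478 and 418 CPM and was seen in 96, 181 and 10 cells. Of 9 chemokine receptor and migration genes tested, 0 were called between days 3 and 7, also near those shares. Of 12 Fc receptor and integrin genes, 1 was called, and at day 14 against day 3, 4 were called lower, with Itgam (CD11b) at 296, 155 and 107 CPM and the inhibitory receptor Fcgr2b at 324, 257 and 152 CPM. This compares with 6.59% of all genes, and without the barcodes of another type 3 were called lower, with Fcgr2b at a ratio of 0.509. Klrd1 was at 548, 553 and 508 CPM and thus alike in the 3 libraries, and Cd7, an immunoglobulin-type receptor best known from T and NK cells, was at 91.7, 172 and 152 CPM.

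Of 10 monocyte genes tested, 2 were called higher and 2 lower at day 7 than at day 3, against 3.09% and 1.35% of all genes. Of 9 tested at day 14 against day 7, 1 was higher and 5 were lower, and 0 and 5 without the barcodes of another type, against 4.68% and 4.98%. Lyz2 was at 1577, 2504 and 796 CPM, with cell medians of 221, 517 and 44.4 CPM. Plac8 was at 543, 906 and 441 CPM, and Ms4a4c, of the tetraspan family, at 489, 634 and 333 CPM. Ly6c2, the antigen of classical monocytes, was at 10.1, 82.4 and 175 CPM, with a ratio of day 7 to day 3 of 8.19 (5.08 to 14.0). At day 14, 29 of 31 Ly6c2 UMIs lay in 1 cell, the Siglech barcode, and the level without it was 12.2 CPM, so that the direction from day 7 to day 14 turned.

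Immediate early and heat shock genes were higher at the later days. Of 19 such genes, which respond within minutes and are known to be induced by tissue digestion, 11 were called higher at day 7 than at day 3, against 3.09% of all genes, and 19 of 19 lay above 0, with a median log2 ratio of 1.03. Against day 3, 16 were called higher at day 14, against 7.85% of all genes tested. Fos was at 435, 1011 and 1632 CPM, and Hspa1a, a heat shock chaperone that shares reads with Hspa1b, at 681, 2027 and 2660 CPM. Several other cells of the same libraries differed in the same direction, with Fos at 972 and 1841 CPM in C1q macrophages, 483 and 1012 CPM in fibroblasts and 233 and 381 CPM in T cells at days 3 and 7. In neutrophils Fos was at 3561 and 2803 CPM, the opposite direction. For Hspa1a it was the T cells that were lower at day 7, at 846 and 714 CPM. C1q macrophages held Hspa1a at 718 and 1634 CPM, fibroblasts at 545 and 987 CPM and neutrophils at 646 and 1132 CPM. The summed level of the list in the Cd209a cells was 8273, 16800 and 21986 CPM. Across cells of a day, the Spearman correlation of the list with Il1b was 0.36 over 95 cells at day 3 and 0.46 over 195 at day 7, and with Cd83 0.31 and 0.30. The cells share a library and each value its cell's UMI total, and the part of the list in the differences between days was not tested. Of 10 ribosomal protein genes, 0 were called in any comparison of days, where 4.44%, 9.67% and 14.4% of all genes were. Of 10 glycolysis and hypoxia genes, 0 were called at day 7, near the share of all genes, with a median log2 ratio of -0.24.

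Day 14 rested on 14 cells, and many of its higher calls rested on single cells. Against day 7, 318 of 3290 genes (9.67%) were called, 154 higher and 164 lower, and against day 3, 478 of 3310 (14.4%). Of the 154 higher than at day 7, 65 had at least 50% of their UMIs in 1 barcode, against 12 of the 164 lower. Leaving out such genes left 89 higher and 152 lower. The named genes Siglech, Ly6d and Dntt belonged to the barcode of another type. P2ry14, a receptor for UDP-glucose, was seen in 2 cells, and Gem, a small GTPase gene, held 11 of 12 UMIs in 1 cell. The non-coding gene Chd3os held 15 of 18 UMIs in 1 cell and the linker histone gene H1fx 10 of 16. Tnip3, an inhibitor of NF-kappaB signalling, was at 99.5, 78.5 and 480 CPM, with a ratio of day 14 to day 7 of 6.11 (4.72 to 7.85), and was seen in 7 of the 14 cells. Timp1, an inhibitor of metalloproteinases, was at 138, 258 and 5.65 CPM, and at 59.0 CPM at day 7 without the barcodes of another type. Reaching such a share in 1 barcode is easier among 14 cells than among 208, so that these counts show how far the day 14 levels rest on single cells and do not compare the directions.

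The cells of day 14 differed among themselves. Il1b was spread over 9 of 14 cells, but 4 of them held 445 of its 460 UMIs, and the same 4 cells held 95 of 109 UMIs of Cd83. They also held 81 of 85 UMIs of Tnip3. Cd209a ranged from 2 to 71 UMIs per cell, and Napsa and Clec10a were seen in every one. Most Il1b, Cd83 and Tnip3 transcripts of day 14 thus lay in the same few cells, which were picked on their Il1b.

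Few of the cells carried many transcripts of cell division. After each cell was thinned to 1000 UMIs, 17.2% (10.3 to 26.1), 15.4% (10.8 to 21.0) and 28.6% (8.39 to 58.1) of the cells of days 3, 7 and 14 held at least 2 genes of a proliferation list. Neutrophils, which do not divide, gave 14.8% and 4.88% at days 3 and 7, so that the share at day 3 was near this background. With a count chosen after seeing the data, at least 20 UMIs of 16 core genes of the list, 4 of 99 cells (4.04%), 5 of 208 (2.40%) and 1 of 14 (7.14%) were cycling, against 0 of 122 and 0 of 41 neutrophils and 12 of 164 (7.32%) and 20 of 282 (7.09%) C1q macrophages. This count was not thinned, and the neutrophils held medians of only 2909 and 3071 UMIs, so that their count of 0 gives no background for it. The 3 highest cells held 75% and 71.6% of the core UMIs at days 3 and 7. At day 14, 1 cell held 68 of 69 UMIs of Ube2c and 16 of 17 of Mki67, and of the 10 of 11 proliferation genes called higher than at day 3, against 7.85% of all genes, each had at least 69.7% of its UMIs in 1 cell.

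The share of a library's transcripts that lay in the Cd209a cells differed between genes. At days 3, 7 and 14, the shares were 89.9%, 64.0% and 24.0% for Ffar2, 66.4%, 50.7% and 40.9% for H2-DMb2, and 59.5%, 46.5% and 31.9% for Napsa. They were 55.0%, 47.4% and 10.6% for Mgl2 and 54.5%, 42.1% and 22.2% for Klrd1. H2-Eb1 stood at 51.3%, 32.6% and 15.3%, and Flt3 at 42.5%, 48.6% and 18.9%. Of the inflammatory genes, the cells held 6.89%, 16.6% and 13.7% of Il1b. These shares compare with 10.3%, 12.4% and 1.38% of all filtered UMIs at the same days, so that Il1b stood below the cells' share of UMIs at day 3, and each of the genes named here stood above it at days 7 and 14.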

How the data were processed

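Raw UMI counts per gene and barcode, as the authors deposited them, were used for 4 droplet libraries (3′ chemistry), 1 per time point; Cell Ranger 3.0.2 is given in the file headers, a version that differs from the one in the study's methods, and the mouse build is not given in usable form. The members, gene lists and tests were chosen with earlier results of these data known. UMIs were summed over the selected cells of a library and given as CPM, and days were compared by the ratio of CPM with exact conditional binomial intervals; calls used genes of at least 50 CPM, 10 CPM added and a 2-fold limit. Named genes were the 12 higher and 12 lower per comparison whose interval bound lay farthest from 1, without mitochondrial, ribosomal, haemoglobin, predicted and sex-linked genes, plus the lists. No replicate existed and no p-value was computed. High doublet scores were the top 0.8% per 1000 barcodes (Scrublet in scanpy 1.11.5), since Scrublet's own threshold marked only 22 barcodes; none was removed in the main values. Python 3.11.15, numpy 2.4.6, scipy 1.17.1, pandas 2.3.3 and matplotlib 3.10.9 were used, and scripts were tested on simulated data. Lists held 4 symbols that the feature tables lack. Promoter windows and coordinates were taken from RefSeq (GRCm38.p6) by symbol. Some items are not reported here.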

Additional observations from a re-analysis of the deposited data

How the results depend on the processing

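No paired analysis was possible because each time point has 1 library. The rule was varied (Cd209a, class II, C1q and barcode limits, doublets), as were scaling, the added CPM and the minimum. Leaving out barcodes of another type, barcodes shared with another library, or genes held by 1 barcode was chosen after seeing the data. Of the values recomputed, 1841 stayed the same, 174 moved and 11 reversed; causes were not tested unless named. The share at days 3 and 7 was 6.02% and 7.73% with thinned barcodes and Cd209a of at least 1 UMI, 6.61% and 8.0% with the looser filter (200 genes, 20% mitochondrial), and 11.1% and 12% among barcodes with Ptprc, where day 14 gave 4.58%. Cd209a of at least 1 UMI, unthinned, gave 11.7% at day 7. Counts of called genes at day 7 against day 3 were 53 with 50 CPM added, 86 at a minimum of 100 CPM and 246 with no minimum. At day 14 against day 7 they were 101, 139 and 1064, with 502 from the mean of each cell's CPM and 506 on totals without mitochondrial, ribosomal and rule genes. At day 14 against day 3 they were 172, 234 and 1356, and 719 on those totals. Higher genes made up 48.4% of calls at day 14 against day 7, 61.2% from the mean of CPM, 36.2% with no minimum and 36.9% without genes held by 1 barcode. Against day 3 the split was 54.4%, and 64.5% with 50 CPM added, 43.1% with no minimum and 43.8% without genes held by 1 barcode. Cycling shares were 69.7%, 70.7% and 78.6% with 1 gene, and 88.9%, 89.9% and 71.4% unthinned. For day 14 against day 7, the log2 ratio turned for Spp1 to 0.58 (class II at least 1%), 0.61 (without barcodes of another type) and 0.57 (without shared barcodes), for Ly6c2 to -2.05 and -2.12 and for Irf8 to -0.57 and -0.56 under the first and second of these, and for Col1a1 to 0.02 under the second; with Cd209a of at least 1 UMI, Fn1 turned to 0.13. For day 14 against day 3, that limit turned Lpl to 0.63 and Col1a1 to -0.03. With 14 cells at day 14, levels under 16.9 CPM (3 counts) could not be told from 0.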
